A study of Mus musculus with 5 samples.

Results

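The genes of mitochondrial fusion (Mfn1, Mfn2 and Opa1), fission (Dnm1l, Fis1 and Mff) and mitochondrial genome maintenance (Tfam, Polg and Twnk), with the nuclear regulator Nrf1, were followed in hearts of diabetic and control mice. These 10 genes were taken by name, and each was represented by its probe set with the highest mean among those annotated with a single gene symbol, out of 22180 genes so represented. Each of the 10 had exactly 1 such probe set, so no choice between probe sets was needed. Transcripts were measured in 5 heart RNA samples of male C57BL/6 mice aged 12 weeks, with 1 array per sample. Of these, 3 were wild type (replicates 3, 4 and 5). The other 2 (replicates 1 and 3) were Akita mice of the same background, given as Ins2+/- in the series' design, which carry a mutated insulin gene and serve to model type 1 diabetes. The Akita mutation makes the insulin precursor misfold in pancreatic beta cells. The labels do not say whether each sample came from a separate animal or from pooled tissue, and p-values therefore measure the spread between these samples, which may be technical.

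Mitochondria in cardiac muscle are kept as a population by joining and dividing. The large GTPases Mfn1 and Mfn2 fuse outer membranes and Opa1 fuses inner membranes and holds cristae in shape, while Dnm1l is drawn from the cytosol to receptors such as Mff and Fis1 to pinch the organelle apart. The small circular genome inside is packed and transcribed with the help of Tfam, and copied by the polymerase Polg behind the helicase Twnk. All of these proteins are encoded in the nucleus, and the transcription factor Nrf1 (nuclear respiratory factor 1, a different gene from Nfe2l1, which shares the alias) activates many nuclear genes for mitochondrial proteins, Tfam among them.

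Before the members are described, the arrays need a word. The 6 markers listed for ventricular myocytes were bright in every array, from 8.32 to 13.26 on the log2 scale. Their summed signal lay at 15.20 to 15.24 (log2) in wild type and at 15.15 and 15.14 in Akita replicates 1 and 3. In Akita 5 were lower and 0 higher. Most of these genes are also expressed in atrial myocytes, so the sum does not measure ventricular content. Myl2, the dimmest, read 8.55, 8.65 and 8.66 in wild type and 8.43 and 8.32 in Akita. Akita replicate 3 stood apart in the sum of the atrial myocyte markers. The summed signal of the 6 genes was 12.12 to 12.22 in wild type, 12.36 in Akita replicate 1 and 14.01 in Akita replicate 3. In every array that sum was made up mostly of Nppa, which read 13.39 in Akita replicate 3, where Sln and Bmp10 read 10.85 and 10.83. In Akita replicate 1, Myl7 (6.55) and Sln (6.71) lay below wild type (7.83 to 8.1 and 7.74 to 8.13), as did Dkk3. Nppa and Bmp10 lay above wild type in that array, and Myl4 lay within its range. Fibroblast markers (6 of 6 higher) summed to 12.11 to 12.17 in wild type and to 12.23 and 12.56 in Akita replicates 1 and 3. Macrophage markers (4 of 5 lower) summed to 9.62 to 9.71 in wild type and to 9.18 and 9.52 in the same Akita arrays. Endothelial markers (4 of 5 higher) summed to 12.71 to 12.82 in wild type and to 12.95 and 13.04 in Akita. The brightest of them was Fabp4, also expressed in adipocytes, at 11.59, 11.52 and 11.67 in wild type and 11.91 in both Akita arrays. Groups overlapped for Pecam1, Cdh5 and Tie1, the last being the lower gene, and did not for Kdr. Skeletal muscle markers (2 of 3 tested lower) summed to 10.34 to 10.41 and to 9.76 and 9.98, a sum made up mostly of Acta1, with Myh1 and Myh4 under the filter on dim genes. Brown adipocyte markers (3 of 4 tested higher) summed to 10.47 to 10.68 in wild type and to 10.38 and 10.78 in Akita. That sum was made up mostly of Ppargc1a, the 1 tested marker that was lower, with Elovl3 under the filter on dim genes. Ppargc1a is also listed below as a regulator of biogenesis. Ucp1, which defines brown adipocytes, read 4.36, 4.21 and 4.17 in wild type and 5.35 and 6.82 in Akita (adjusted p = 0.131 by limma). White adipocyte markers (3 of 3 tested higher) summed to 6.95 to 7.04 in wild type and to 7.29 and 7.63 in Akita, with Adipoq and Lep, which define that cell type, under the filter on dim genes. In whole tissue, fewer cells of a type and less RNA per cell cannot be told apart, and the part of these markers in the differences below was not tested. Over all 15528 genes tested with limma, 51 (0.328%) passed an adjusted p of 0.05, 33 higher and 18 lower, or 25 and 5 with each array centred on its median over the genes tested and 41 and 43 with centring on all probe sets. The median difference over all genes was -0.03 (-0.12 with centring on all probe sets and 0.06 with centring on the genes tested), and over the 6164 genes with a mean of 5 to 7 it was -0.06.

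For most of the 10 genes the mean transcript levels of Akita and wild type hearts lay close together, which does not show that the levels were equal. Of the 10 genes, 7 differed by less than 0.1 log2 units between the group means. They were all 3 fusion genes, the fission genes Dnm1l and Mff, the polymerase Polg and the helicase Twnk. The SE of their differences, from 0.10 (Mfn1) to 0.14 (Dnm1l), was as large as that bound or larger. The other 3, Nrf1, Tfam and Fis1, were lower in both Akita hearts than in every wild type heart, with log2 differences of -0.40, -0.22 and -0.18. By limma, with p-values adjusted over the whole set of tested genes (Benjamini-Hochberg), 0 of the 10 passed an adjusted p of 0.05, where 0.328% of genes did (0.213% higher and 0.116% lower). At an unadjusted p under 0.05 there was 1, Nrf1, on the lower side, beside 13.6% of all genes tested (9.49% lower and 4.13% higher). The groups did not overlap in 3 of the 10, all with Akita lower, and in 29.7% of all genes, 19.9% with Akita lower and 9.89% with Akita higher. The members' count is close to that background. All 10 had a mean above the filter on dim genes (log2 4.06), from 5.79 in Fis1 to 11.11 in Mfn2.

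**Figure D1:**
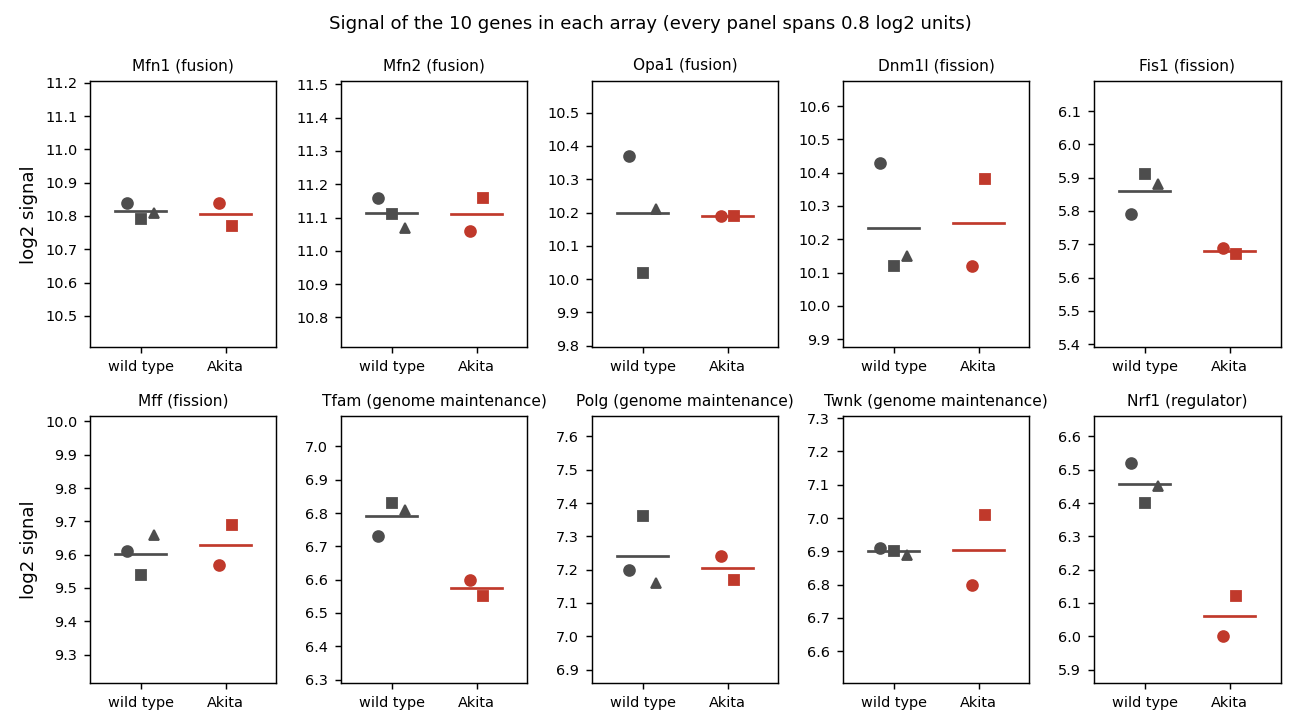
The log2 signal of each of the 10 genes (vertical axis) in 3 wild type (grey) and 2 Akita (red) hearts, with group means as horizontal bars and panels of equal height in log2 units (circle, square and triangle are wild type replicates 3, 4 and 5, and circle and square Akita replicates 1 and 3). Both Akita hearts lie under all wild type hearts for Nrf1, Tfam and Fis1, and the groups overlap in the other 7 genes.

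Nrf1 showed the widest separation. Its log2 signal was 6.52, 6.40 and 6.45 in wild type replicates 3, 4 and 5 and 6.00 and 6.12 in Akita replicates 1 and 3. The gap between the lowest wild type heart and the higher Akita heart was wider than the range within either group, which was 0.12 in both. The means were 6.46 ± 0.06 (SD, n = 3) and 6.06 ± 0.08 (SD, n = 2), a log2 difference of -0.40 (SE 0.11). On the linear scale the Akita level was 0.760 times that of wild type (95% interval 0.635 to 0.908). The unadjusted p was 0.00800, the 574th smallest among the genes tested, and limma's adjusted p was 0.215, so Nrf1 did not pass the threshold. Over the alternative settings and with each array left out, the difference ran from -0.48 to -0.30 and the adjusted p from 0.142 to 0.521. Without Akita replicate 3, the array with high atrial markers, the difference was -0.46, and without Akita replicate 1 it was -0.34.

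The stretch before each gene's start is shown for the members that separated, so that the sequence can be read beside the values. Nrf1, ETS-family factors such as GABP and the GC-box factor Sp1 are known regulators of nuclear genes for mitochondrial proteins. The sequences are from RefSeq on build GRCm38.p6; RefSeq windows were found for 10 of 10 genes, 17 windows in all. Each is written 5′ to 3′ on the gene's strand, as the 250 bases before an annotated start, and capitals mark the motifs searched on both strands: the NRF1 half-site TGCGCA, the ETS core CCGGAAG and the GC box GGGCGG, none of which contains another, though GC boxes may overlap each other. Nrf1 and Fis1 have 2 windows each, and the one at the start of the annotated gene is printed. The Nrf1 window is chr6:30047738-30047987 (plus strand), and its last 3 bases lie inside the annotated gene span.
Nrf1: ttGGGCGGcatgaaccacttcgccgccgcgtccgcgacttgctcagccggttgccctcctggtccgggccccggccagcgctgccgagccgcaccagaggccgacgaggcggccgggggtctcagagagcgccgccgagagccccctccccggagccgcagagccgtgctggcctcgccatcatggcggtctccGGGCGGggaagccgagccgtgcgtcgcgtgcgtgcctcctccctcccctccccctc
The Fis1 window is chr5:136953025-136953274 (plus strand), directly before the gene.
Fis1: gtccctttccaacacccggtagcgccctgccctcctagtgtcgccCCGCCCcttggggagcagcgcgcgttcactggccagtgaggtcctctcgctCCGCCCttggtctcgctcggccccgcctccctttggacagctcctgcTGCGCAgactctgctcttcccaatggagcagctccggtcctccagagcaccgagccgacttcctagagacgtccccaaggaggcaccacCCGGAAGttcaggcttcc
For Tfam only 30 bases around the ETS core are given, chr10:71238073-71238102 (minus strand), since the window lies inside the annotated gene, behind the start of a longer transcript.
Tfam: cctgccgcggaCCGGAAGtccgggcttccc

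These windows differ in what they hold. The Nrf1 window, 76.0% G and C where the median of all windows is 52.4%, has GC boxes at -248 and -56 (first base, counted back from the start at -1) and neither of the other motifs. Its other window is 43.2% G and C and holds none of the 3 motifs. The Fis1 window shown has all 3 motifs, with the half-site at -107, the ETS core at -18 and GC boxes at -205 and -154, while its other window has only overlapping GC boxes at -32 and -28. Tfam has the ETS core at -47 and GC boxes at -130 and -108. The half-site was also found in the Opa1 window (at -54). The ETS core was also found in windows of Mfn1, Polg and Twnk, which did not separate the groups, and the GC box in windows of all 10 members. The Polg window and the Twnk window with the ETS core lie wholly inside the annotated gene. So do the other windows of Nrf1 and Fis1 and a window of Dnm1l, and further windows overlap the gene in part. Over the 17 windows, 2 held the half-site, 5 the ETS core and 13 the GC box. Windows of 1 gene, which overlap in Mfn2 and Mff, were counted separately. Over all 32851 windows of the same length the shares were 6.43%, 6.91% and 32.7%. A match is only a match of letters and shows neither binding nor regulation.

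Of the 3 genes that act on the mitochondrial genome itself, Tfam differed most. Tfam, which coats the genome and starts its transcription, had log2 signals of 6.73, 6.83 and 6.81 in wild type and 6.6 and 6.55 in Akita replicates 1 and 3. All 3 wild type hearts lay above both Akita hearts, and the wild type values spanned 0.10. The difference was -0.22 (SE 0.11, adjusted p = 0.432 by limma), which is 0.862 times the wild type level with a 95% interval of 0.725 to 1.02. With quantile normalization applied again it shrank to -0.10, and it was -0.30 with arrays centred on the median of all probe sets, so its size depended on the scaling though its direction did not. Without Akita replicate 3 the difference was -0.19, and without Akita replicate 1 it was -0.24.

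For the replication enzymes Polg and Twnk the groups overlapped, and whether they differed from Tfam was not tested. Polg, the catalytic subunit of the mitochondrial DNA polymerase, read 7.20, 7.36 and 7.16 in wild type and 7.24 and 7.17 in Akita, with the Akita values inside the wild type range. Its log2 difference was -0.04 (SE 0.12, adjusted p = 0.926 by limma; 95% interval of the fold 0.809 to 1.18). Twnk, the helicase that unwinds the genome ahead of the polymerase, gave 6.91, 6.90 and 6.89 in wild type and 6.80 and 7.01 in Akita. The 2 Akita hearts lay on either side of a very tight wild type group. Its mean difference of 0.0050 (SE 0.11) therefore describes neither heart. A further probe set is annotated to Twnk together with a second gene and was not used.

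**Figure D2:**
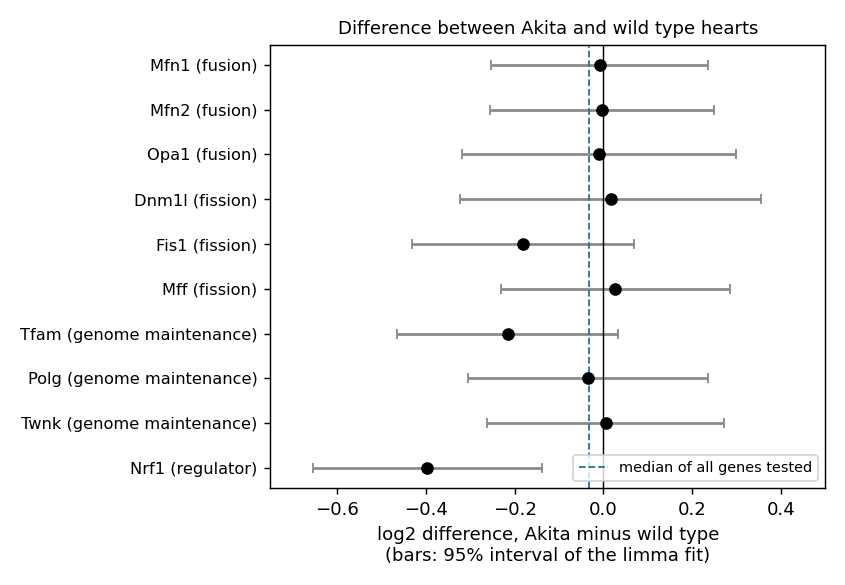
Log2 differences of the 10 genes (horizontal axis, Akita minus wild type; points) with the 95% interval of the limma fit (bars), and the median of all genes tested (-0.03, dashed line). The interval for Nrf1 lies below 0, and those of the other 9 genes include 0.

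For each of the 3 fusion genes the Akita and wild type means differed by at most 0.01 log2 units. Mfn1, an outer membrane fusion GTPase, read 10.84, 10.79 and 10.81 in wild type and 10.84 and 10.77 in Akita replicates 1 and 3. All 5 hearts fell within 0.07 log2 units. Its paralogue Mfn2, which also tethers mitochondria to the endoplasmic reticulum, read 11.16, 11.11 and 11.07 in wild type and 11.06 and 11.16 in Akita, a range of 0.10 over the 5 hearts. The log2 differences were -0.0083 (SE 0.10) and -0.0033 (SE 0.11), and the 95% intervals of the fold were 0.839 to 1.18 for Mfn1 and 0.838 to 1.19 for Mfn2. Opa1, the inner membrane fusion GTPase, was at 10.19 in both Akita hearts and at 10.37, 10.02 and 10.21 in wild type. Here the spread lay within the wild type group, and the difference was -0.01 (SE 0.13; fold interval 0.802 to 1.23). The signs of these differences turned under other settings, as with quantile normalization again, which gave 0.04, 0.05 and 0.04 for Mfn1, Mfn2 and Opa1. These intervals exclude a change of 1.5-fold in either direction but do not show that the levels were equal.

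Among the fission genes, Fis1 separated the groups and the others did not. Fis1, a small outer membrane protein first known as a fission factor in yeast, was the dimmest member, at 5.79, 5.91 and 5.88 in wild type and 5.69 and 5.67 in Akita replicates 1 and 3. Both Akita hearts were lower than all wild type hearts, whose range was 0.12. The difference was -0.18 (SE 0.11, adjusted p = 0.509 by limma), or 0.883 times wild type with a 95% interval of 0.742 to 1.05. It ran from -0.27 to -0.09 over the alternatives, reaching the second value with arrays centred on the median of the genes tested. Dnm1l, the dynamin-related GTPase that constricts the organelle, read 10.43, 10.12 and 10.15 in wild type and 10.12 and 10.38 in Akita. Each group held a high heart and at least 1 low heart of about the same levels, and the difference was 0.02 (SE 0.14; fold interval 0.80 to 1.28), or -0.11 without Akita replicate 3. Mff, the main receptor that recruits Dnm1l, read 9.61, 9.54 and 9.66 in wild type and 9.57 and 9.69 in Akita, a difference of 0.03 (SE 0.11; -0.03 without Akita replicate 3) with overlapping groups.

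**Figure D3:**
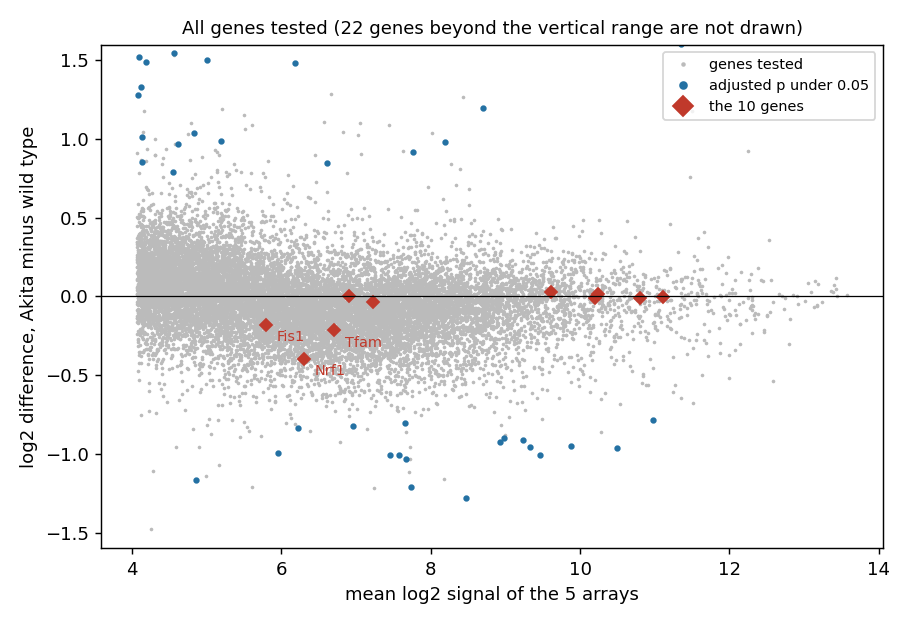
Log2 difference (vertical axis, Akita minus wild type) against the mean log2 signal of the 5 arrays (horizontal axis) for all genes tested (grey), those past an adjusted p of 0.05 (blue) and the 10 genes (red diamonds), without the 22 genes beyond 1.6 log2 units. Nrf1, Tfam and Fis1 lie below 0 among genes of mean 5 to 7, whose median is -0.06, and the other 7 lie close to the 0 line.

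Read across the hearts, the median of the 10 genes minus the wild type mean was -0.08 in Akita replicate 1 and -0.03 in Akita replicate 3. Over all genes tested the same medians were -0.07 and -0.01. Over the genes with a mean within the members' range, the medians were -0.155 and -0.02. For the 7 genes other than Nrf1, Tfam and Fis1 they were -0.03 and 0.05. The members' median difference was -0.0092, beside -0.03 over all genes tested and -0.08 over the 9084 genes with a mean within the members' range. By count, 7 lay lower and 3 higher in Akita, where 56.4% of all genes lay lower. Of the 9084 genes with a mean within the members' range, 6256 lay lower and 2799 higher. The members' counts became 3 and 7 with quantile normalization again or with centring on the genes tested. They became 10 and 0 with centring on the single-symbol or on all probe sets. The members' median SD within groups was 0.0694, against 0.144 over all genes tested. The second value includes genes down to the filter at log2 4.06, and the spread of genes as bright as the members was not compared. The 95% interval excluded a 2-fold change in all 10 genes and a 1.5-fold change in 9, Nrf1 being the exception.

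The wider pathway was described from 9 further lists of 112 genes, of which 97 were tested. By limma 0 passed an adjusted p of 0.05, where 0.328% of all genes did. At an unadjusted p under 0.05 there were 11 (11.3%), 1 higher and 10 lower, beside 13.6% of all genes. Single arrays moved this count: it was 6 without wild type replicate 3, 6 without wild type replicate 4 and 18 without Akita replicate 3. The number over all genes tested, 2116 with every array, was 1387, 1298 and 3274 in the same settings. The groups did not overlap in 24 genes with Akita lower (24.7%, beside 19.9% of all genes) and in 11 with Akita higher (11.3%, beside 9.89%). The genes lower outnumbered those higher, 60 to 37, and the split moved with the scaling. It was 50 to 46 with quantile normalization again and 42 to 55 with centring on the genes tested, but 71 to 26 with centring on the single-symbol probe sets and 82 to 15 with centring on all probe sets.

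Among partners of outer membrane fusion and transport, 0 of 8 genes passed and 1 had an unadjusted p under 0.05, Rhot2, with a list median of -0.13 (7 of 8 lower). Rhot2, a GTPase that couples mitochondria to motor proteins, read 9.32, 9.34 and 9.28 in wild type and 8.72 and 8.83 in Akita. The groups were far apart for their spread (log2 difference -0.54, SE 0.11, adjusted p = 0.129 by limma). It passed in 1 alternative, an intensity trend with a robust prior (adjusted p = 0.0201), and ran from 0.0201 to 0.467 over the alternatives. Its motor adaptor partner Trak2 and the fusion factor Miga2 differed by -0.15 and -0.21. Miga2 rested on Akita replicate 1, without which its difference was -0.05 (-0.37 without Akita replicate 3). Further fission factors had the lowest list median, -0.21, with 7 of 9 lower, 0 past the threshold and 1 at an unadjusted p under 0.05. Those of smallest p were the Dnm1l receptor Mief2 (-0.30, adjusted p = 0.339), the actin-nucleating formin Inf2 (-0.39, adjusted p = 0.373) and the receptor Mief1 (-0.38, adjusted p = 0.400), all by limma. Inf2 and Mief1 were lower mostly in Akita replicate 1, at 5.43 and 5.99, against 5.88 and 6.35 in Akita replicate 3, and without Akita replicate 1 their differences were -0.16 and -0.20.

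In the list of Opa1-processing proteases, prohibitins and cristae genes, 0 of 17 passed, 1 had an unadjusted p under 0.05 and the median was -0.01 (0.05 with quantile normalization again). The Opa1 proteases Oma1 and Yme1l1, shown because they cut the protein whose transcript is described above, differed by 0.03 and 0.05 with overlapping groups. The gene of that small p, Chchd10, whose product sits at the cristae junctions, read 12.19, 12.20 and 12.19 in wild type and 11.69 and 11.66 in Akita. Its wild type hearts agreed to 0.01, and the log2 difference was -0.52 (SE 0.10, adjusted p = 0.129 by limma). With an intensity trend and a robust prior it passed (adjusted p = 0.00201; 0.00201 to 0.467 over the alternatives). Samm50, of the outer membrane assembly machinery, differed by -0.23 and the cristae gene Apoo by 0.22, with adjusted p = 0.398 and 0.470 by limma. In the list of ubiquitin ligases and mitophagy genes, 0 of 6 passed either threshold and no gene separated the groups (median -0.06); Usp30, Mul1 and Pink1 differed by -0.26, -0.16 and -0.08. Without Akita replicate 1 Usp30 was at -0.10 and Mul1 at -0.34, and without Akita replicate 3 they were at -0.43 and 0.03.

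In replication and repair, 0 of 14 passed. At an unadjusted p under 0.05 there were 3 (21.4%, beside 13.6% of all genes), all lower, as were 9.49% of all genes. They were Ung, a uracil DNA glycosylase of base excision repair, the nuclease Endog and Polg2, the accessory subunit of Polg. Their differences were -0.39, -0.34 and -0.29 (adjusted p = 0.210, 0.30 and 0.350 by limma). The groups did not overlap in any of the 3. Over the list they did not overlap in 4 genes with Akita lower (28.6%, beside 19.9% of all genes). With Akita higher there was 1 (7.14%, beside 9.89%). Endog was at -0.22 without Akita replicate 3, and Polg2 at -0.19 without Akita replicate 1. Polg2 read 5.21, 5.22 and 5.08 in wild type and 4.78 and 4.98 in Akita, while the catalytic subunit did not differ beyond its spread. In transcription and protein quality control of the nucleoid, 0 of 10 passed, and 4 had an unadjusted p under 0.05, 3 lower and 1 higher (40.0%, beside 13.6% of all genes). Polrmt, the mitochondrial RNA polymerase that works with Tfam, read 7.42, 7.58 and 7.37 in wild type and 7.06 and 7.13 in Akita. Both Akita hearts were lower (log2 difference -0.36, SE 0.12, adjusted p = 0.268 by limma). Tfb1m, a mitochondrial rRNA methyltransferase, differed by -0.39 (adjusted p = 0.288 by limma), while its relative Tfb2m, the initiation factor, differed by 0.13 with overlapping groups. Mterf2, also on the lower side, read 6.93, 6.99 and 6.83 in wild type and 6.32 and 6.71 in Akita (log2 difference -0.40, SE 0.14, adjusted p = 0.303 by limma). Clpx, the unfoldase of the matrix protease, was the gene of this list on the higher side, at 8.82, 8.83 and 8.73 in wild type and 9.08 and 9.18 in Akita (log2 difference 0.34, SE 0.11, adjusted p = 0.269 by limma). Tfb2m and Mterf2 are outside the rule for named genes and were chosen after their values were seen, as were Oma1, Yme1l1, Ppargc1a and Gabpa.

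For nucleotide supply, 0 of 10 genes passed and 1 had an unadjusted p under 0.05 (median -0.04). This was Abat, an aminotransferase of GABA that also takes part in mitochondrial nucleotide salvage, at 7.0, 7.13 and 6.93 in wild type and 6.40 and 6.46 in Akita (log2 difference -0.59, SE 0.11, adjusted p = 0.125 by limma). With the mean of its probe sets in place of the brightest the difference was -0.37, and the adjusted p ran from 0.0557 to 0.467 over the alternatives. Slc25a36, a pyrimidine nucleotide carrier, and the kinase Dguok differed by -0.29 and -0.24, or by -0.13 and -0.12 without Akita replicate 1 and -0.45 and -0.35 without Akita replicate 3. Of 13 nuclear regulators of Tfam and mitochondrial biogenesis, 0 passed, 0 had an unadjusted p under 0.05 and 9 lay lower (median -0.13). The smallest p-values belonged to Nfe2l2, a regulator of antioxidant genes, and the co-activators Pprc1 and Ppargc1b, at -0.25, -0.22 and -0.35. Without Akita replicate 1 Pprc1 was at -0.11 and Ppargc1b at -0.02. Ppargc1b was 7.31 in Akita replicate 1 and 7.96 in Akita replicate 3, against 7.84, 8.13 and 7.97 in wild type. Ppargc1a, the co-activator that works with Nrf1 on Tfam, and Gabpa, the DNA-binding subunit of GABP, differed by -0.15 and 0.10 with overlapping groups.

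**Figure D4:**
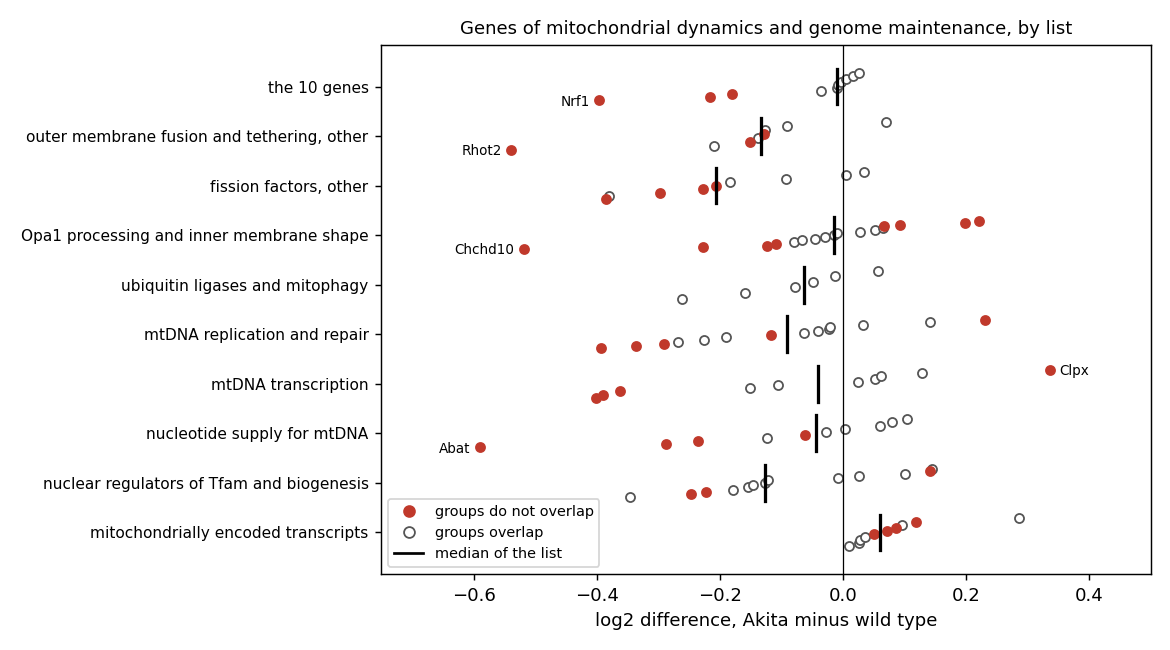
Log2 differences (horizontal axis, Akita minus wild type) of the 10 genes and of the tested genes of each pathway list. Filled red points are genes whose groups do not overlap, open points are genes whose groups do, and black bars are list medians. List medians run from -0.21 in the other fission factors to 0.06 in the mitochondrially encoded transcripts, and no gene drawn passed an adjusted p of 0.05.

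Transcripts of the mitochondrial genome itself are the product of the machinery above. Of 15 mitochondrially encoded RNAs, 10 had a probe set of their own, and the other 5 are not analysed here. By limma 0 of 10 passed, 0 had an unadjusted p under 0.05, and the median difference was 0.06. All 10 were higher in Akita in the deposited values, by 0.01 to 0.12 apart from ND6. ND6 differed by 0.29 (SE 0.38), at 10.14, 10.85 and 11.09 in wild type and 11.56 and 10.4 in Akita, with overlapping groups. Of the 10, 6 were lower with arrays centred on the median of all probe sets. There were 4 lower with centring on the single-symbol probe sets and 3 with quantile normalization again. Apart from ND6 they read between 12.92 and 13.61 in every heart, near the highest value in the table, 13.66. ND3, a subunit of complex I, was the one of smallest p, at 13.34, 13.42 and 13.40 in wild type and 13.53 and 13.48 in Akita (log2 difference 0.12, SE 0.11, adjusted p = 0.667 by limma). COX3, of cytochrome oxidase, and ND4L, of complex I, differed by 0.10 and 0.09.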

How the data were processed

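Heart RNA was read on Affymetrix arrays, which the submitters' processing notes say were processed in Affymetrix Expression Console. Not given in the sources used here are its version, its summarisation method and any normalization between arrays. The authors deposited log2 values, 1 for each probe set on each array, from 1.27 to 13.66, a range that fits base 2. If arrays were scaled to each other, a shift shared by most genes would not show, and background not removed would shrink differences of dim genes. Of 41345 probe sets, the platform annotation gave 23521 a single symbol and 1814 several, and did not list 16010. Symbols were checked by Entrez identifier against RefSeq (23328 matched, 0 changed).

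Genes with a mean under the 30th percentile (log2 4.06) were left out, which left 15528. The group difference was estimated by limma (version 3.58.1, R version 4.3.3) through lmFit and eBayes, with 3 residual and 4.38 prior degrees of freedom. Tests were two-sided and p-values were adjusted by Benjamini-Hochberg over the genes tested. This was tested on simulated data. The labels name no batch. Array medians were 4.53, 4.56 and 4.62 in wild type and 4.71 and 4.60 in Akita replicates 1 and 3. Precision is limited by how few arrays there are. Array pairs correlated at 0.983 to 0.993 across probe sets, and none were duplicates. The members and lists were chosen with earlier results of these data known. Named genes were the 10 members and, of each list, genes past the threshold or else the 3 of smallest p. Alternatives were other filters, the mean of probe sets, quantile normalization again, 3 centrings, array weights, a robust prior with an intensity trend, and each array left out. Python 3.11.15, with pandas 2.3.3 and matplotlib 3.10.9, made the summaries and plots.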

Additional observations from a re-analysis of the deposited data

How the results depend on the processing

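Under all 14 alternatives, 0 members passed an adjusted p of 0.05 and 1, Nrf1, had an unadjusted p under 0.05. Nrf1, Tfam and Fis1 were lower in Akita under each of them. The number of genes past the threshold over the whole table was 86 with no filter, 32 with quantile normalization again, 197 with an intensity trend and a robust prior and 28 with array weights; with an array left out it ran from 9 (without wild type replicate 3) to 44 (without Akita replicate 1), with 14, 21 and 11 without wild type replicate 4, wild type replicate 5 and Akita replicate 3. Pathway genes past it numbered 2 with the trend and robust prior. Centring on all probe sets gave 84 calls (41 higher, 43 lower) and a members' median of -0.094; centring on the genes tested gave 30 (25 and 5) and 0.085. Both were added after the data were seen. With arrays left out the members' median ran from -0.077 to 0.0075.

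Differences near 0 turned sign. With quantile normalization again they were 0.044 (Mfn1), 0.049 (Mfn2), 0.037 (Opa1) and 0.068 (Polg). Centring on the genes tested gave 0.086, 0.091, 0.084 and 0.059 for the same genes and 0.016 for Pink1. Centring on the single-symbol probe sets gave -0.025 (Dnm1l), -0.015 (Mff) and -0.037 (Twnk), and centring on all probe sets -0.068, -0.058 and -0.080. Array weights gave 0.016 for Opa1. With an array left out the ranges were -0.043 to 0.027 for Mfn1, -0.053 to 0.047 for Mfn2, -0.10 to 0.075 for Opa1, -0.11 to 0.15 for Dnm1l, -0.033 to 0.087 for Mff, -0.075 to 0.025 for Polg, -0.10 to 0.11 for Twnk and -0.34 to 0.027 for Mul1. The cause of these turns was not tested; none of these values passed the threshold. No paired analysis was possible because the labels name no pairing of samples. With an Akita array left out, the lone array was assumed to vary like the wild type arrays. Signal over background cannot be judged from these values, which carry no detection call.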
